A study of Mus musculus with 13 samples.

Results

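The genes described here are the interleukin-1 (IL-1) ligands, their natural antagonist and their receptors: Il1a, Il1b, Il33, Il1rn, Il1r1, Il1r2, Il1rap and Il1rl1. They were looked up by symbol or alias among the transcript clusters of an Affymetrix Mouse Gene 1.0 ST array that name 1 gene only. Of the 8 genes, 6 had such a cluster among the 19938 genes measured. Il1r1, the signalling receptor for IL-1, and Il1rl1, the IL-33 receptor, have no cluster listed in the annotation used and are not analysed here. The study compared mouse rectum in 3 states on 13 arrays, 1 array per piece of tissue. There were 5 adenocarcinomas and 4 pieces of flanking inflamed mucosa, all macrodissected from frozen sections of rectal prolapses of α6fl/fl Villin-Cre mice. The remaining 4 pieces were normal rectal mucosa scraped from mice that the source names call control, although in the labels' genotype field all 13 read α6fl/fl Villin-Cre. In these animals the villin promoter drives Cre, and so the loss of α6 integrin, in intestinal epithelial cells and not in the immune or stromal cells of the tissue. Tumour mice were 53, 60, 60, 64 and 80 weeks old, mice with inflamed mucosa 53, 60, 60 and 64 weeks, and control mice 53, 60, 64 and 70 weeks. No separate treatment is given for any group. The labels do not say whether a tumour and an inflamed piece of the same number came from 1 mouse.

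IL-1α and IL-1β are alarm cytokines that bind the same receptor, IL1R1, which signals only after recruiting the accessory chain IL1RAP. The interleukin-1 receptor antagonist, made from Il1rn, occupies IL1R1 without recruiting that chain, and the decoy receptor IL1R2 binds IL-1 without signalling. IL-33 is a related nuclear alarmin that uses IL1RL1 (ST2) with the same accessory chain. In gut, myeloid cells are a main source of IL-1β, whereas epithelial and stromal cells are known sources of IL-33.

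Values are the log2 expression values the authors deposited, so a difference of 1 is a doubling in signal. Arrays keep the numbers of the sample titles (1, 2, 3, 4 and 6 for adenocarcinoma, 1 to 4 for inflamed mucosa, 1, 2, 4 and 6 for normal mucosa), and lists of values follow that order. Array medians lay between 6.41 and 6.59, and correlations between arrays between 0.925 and 0.992. Columnar epithelium markers averaged 11.67 to 11.85 in tumours, 11.73 to 11.86 in inflamed mucosa and 11.92 to 12.07 in normal mucosa. These means lay far above the array medians on every array. Squamous epithelium markers set some arrays apart. Over 14 squamous markers, the mean was 6.77, 8.28, 7.22, 6.41 and 6.61 in tumours, against 5.77 to 6.09 in inflamed mucosa and 9.22, 6.21, 6.01 and 6.05 in normal mucosa. The basal keratin Krt5 read 11.17 in tumour 2, 10.70 in tumour 3 and 12.10 in normal mucosa 1, against 7.38 or less on the other arrays. The member calls, the squamous marker counts and some listed genes are therefore also given without these 3 arrays, an alternative chosen after seeing the data. The agonist minus antagonist differences on each array were not tested without all 3.

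Both IL-1 agonist transcripts were higher in adenocarcinoma than in either other tissue. Il1a (transcript cluster 10487588) read 8.16, 7.66, 6.90, 10.15 and 8.01 in adenocarcinoma, 4.79, 4.54, 4.42 and 4.24 in inflamed mucosa, and 6.88, 4.45, 4.50 and 4.18 in normal mucosa. Every tumour lay above every inflamed and every normal array, tumour 4 was the highest, and normal mucosa 1 stood well above the other normal arrays. Il1a rose 9.02-fold in adenocarcinoma against normal mucosa (8.18 ± 1.21 against 5.00 ± 1.26, SD, n = 5 and 4), a log2 difference of 3.17 ± 0.60 (SE, limma across all genes, Benjamini-Hochberg adjusted p = 0.00111). Without normal mucosa 1 the difference in Il1a was 3.80 (limma, adjusted p = 9.96e-05). Against inflamed mucosa (4.50 ± 0.23, n = 4), Il1a rose 12.8-fold, by 3.68 ± 0.60 (limma, adjusted p = 0.00222). For inflamed minus normal mucosa, Il1a differed by -0.50 ± 0.63 (95% interval -1.85 to 0.85, limma, adjusted p = 0.549). In these bulk samples, fewer cells of a type and less RNA per cell cannot be told apart.

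The low end of Il1a was close to what these arrays read for absent transcripts. Xist on the 8 male arrays and the Y-linked genes Eif2s3y, Kdm5d and Uty on the 5 female arrays gave 23 readings between 3.60 and 5.57. Il1a lay at or below 5.57 on all 4 inflamed arrays and on 3 of 4 normal arrays, and none of the other 5 members did so on any array. These readings come from other probes, whose background can differ, so they describe the range in which a reading may carry little signal. The tumour mean of Il1a was 2.61 above the highest of them, or 6.1-fold.

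Il1b (10487597) showed the same order of tissues. It read 8.92, 8.44, 7.49, 10.67 and 9.84 in adenocarcinoma, 6.72, 6.27, 6.34 and 6.21 in inflamed mucosa, and 7.87, 6.24, 5.84 and 5.94 in normal mucosa. All tumours exceeded all inflamed arrays, but normal mucosa 1 lay above tumour 3, so the tumour and normal groups overlapped. Il1b rose 6.06-fold in adenocarcinoma against normal mucosa (9.07 ± 1.23 against 6.47 ± 0.95, log2 difference 2.60 ± 0.54, limma, adjusted p = 0.00233). It rose 6.44-fold against inflamed mucosa (6.38 ± 0.23, log2 difference 2.69 ± 0.54, limma, adjusted p = 0.00864). For inflamed minus normal mucosa, Il1b differed by -0.09 ± 0.57 (95% interval -1.32 to 1.14, limma, adjusted p = 0.915), and without normal mucosa 1 it was 0.38.

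**Figure D1:**
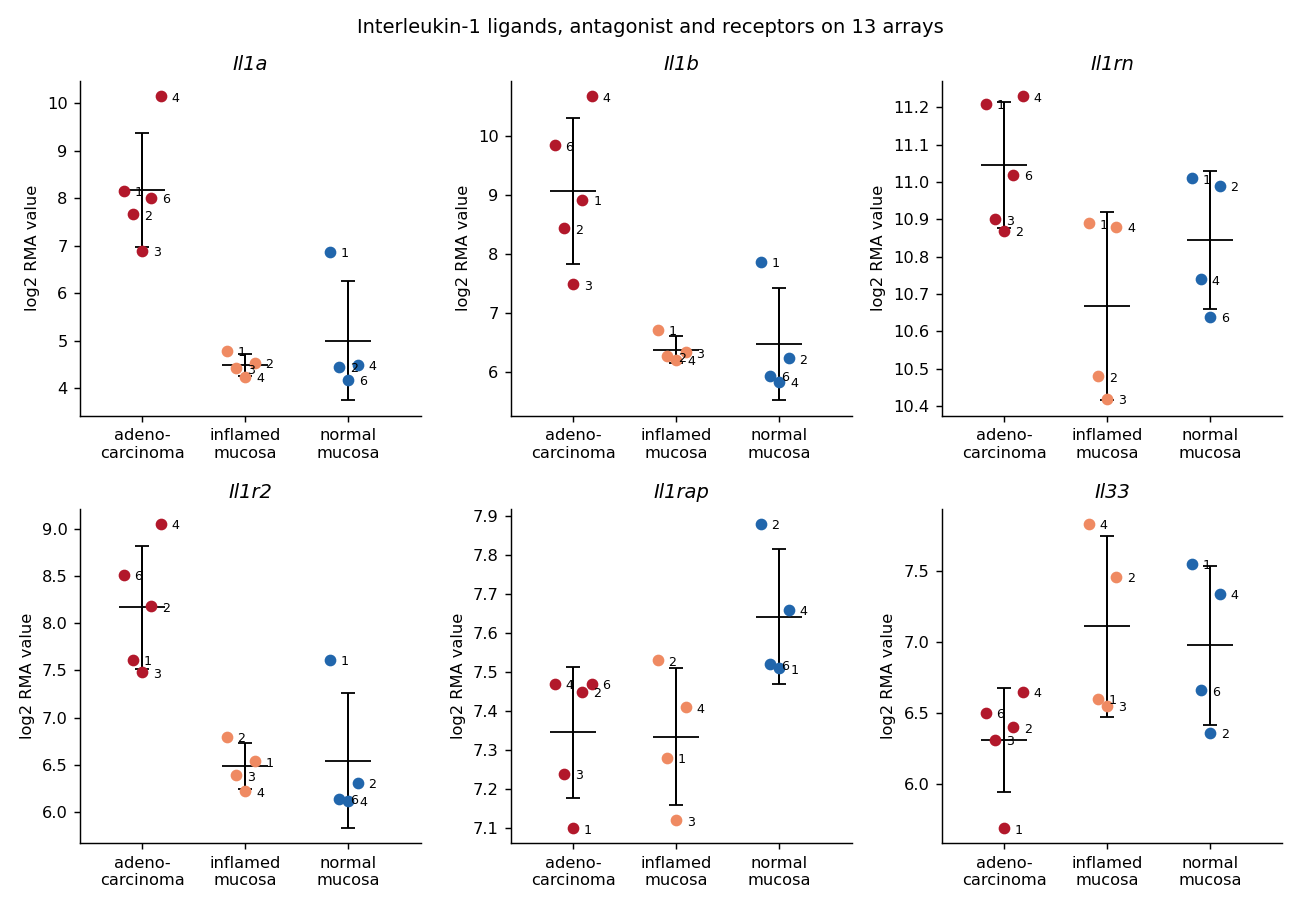
Log2 expression values of the 6 measured genes on 13 arrays, 1 point per array with its number, by tissue; horizontal lines are group means and bars 1 SD (n = 5, 4 and 4), and each panel has its own axis. Il1a, Il1b and Il1r2 were highest in adenocarcinoma, with normal mucosa 1 above the other normal arrays in all 3 panels.

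The antagonist transcript passed in no comparison of the deposited values without pairing. Il1rn (10469816) read 11.21, 10.87, 10.90, 11.23 and 11.02 in adenocarcinoma, 10.89, 10.48, 10.42 and 10.88 in inflamed mucosa, and 11.01, 10.99, 10.74 and 10.64 in normal mucosa. The arrays lay within a narrow band and the 3 groups overlapped. The difference in Il1rn was 0.20 ± 0.13 for adenocarcinoma minus normal mucosa (95% interval -0.08 to 0.48, limma, adjusted p = 0.227). Inflamed minus normal mucosa gave -0.17 ± 0.14 (-0.47 to 0.12, limma, adjusted p = 0.336). Adenocarcinoma minus inflamed mucosa gave 0.37 ± 0.13 (0.10 to 0.65, limma, adjusted p = 0.107). With same-numbered tumour and inflamed arrays joined in a random block that last difference passed, at 0.38 (limma, adjusted p = 0.0299), and in the 4 pairs alone at 0.38 (limma, adjusted p = 0.0231). A fixed block over all arrays of a number, normal arrays included, gave 0.40 and did not pass (limma, adjusted p = 0.0692). In the 4 same-numbered pairs, tumour exceeded inflamed Il1rn by 0.32, 0.39, 0.48 and 0.35, so the tumour was the higher array of each pair.

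The decoy receptor rose with the agonists. Il1r2 (10345752) read 7.61, 8.18, 7.48, 9.05 and 8.51 in adenocarcinoma, 6.54, 6.80, 6.39 and 6.22 in inflamed mucosa, and 7.61, 6.31, 6.12 and 6.14 in normal mucosa. Every tumour exceeded every inflamed array, and normal mucosa 1 reached the level of the lowest tumours. Il1r2 rose 3.08-fold in adenocarcinoma against normal mucosa (8.17 ± 0.65 against 6.54 ± 0.71, log2 difference 1.62 ± 0.34, limma, adjusted p = 0.00225) and 3.2-fold against inflamed mucosa (6.49 ± 0.24, log2 difference 1.68 ± 0.34, limma, adjusted p = 0.00835). Inflamed minus normal mucosa was -0.06 ± 0.36 (95% interval -0.82 to 0.71, limma, adjusted p = 0.913).

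The accessory chain narrowly missed the threshold against normal mucosa. Il1rap (10434845) read 7.10, 7.45, 7.24, 7.47 and 7.47 in adenocarcinoma, 7.28, 7.53, 7.12 and 7.41 in inflamed mucosa, and 7.51, 7.88, 7.66 and 7.52 in normal mucosa. All 5 tumours lay below all 4 normal arrays, whereas inflamed mucosa 2 overlapped with the normal arrays. The differences missed the threshold: -0.30 ± 0.11 for adenocarcinoma minus normal mucosa (95% interval -0.54 to -0.05, limma, adjusted p = 0.0557) and -0.31 ± 0.12 for inflamed minus normal mucosa (-0.56 to -0.05, limma, adjusted p = 0.0721). Adenocarcinoma minus normal mucosa passed in 7 of 27 alternatives and inflamed minus normal mucosa in 4 of 27. Sex as a covariate, centring, cyclic loess and quantile normalization moved both past the threshold (limma, adjusted p = 0.00532 to 0.0409 for adenocarcinoma and 0.0044 to 0.0484 for inflamed mucosa). Adenocarcinoma minus inflamed mucosa was 0.01 ± 0.11 (-0.24 to 0.25, limma, adjusted p = 0.985).

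Il33, unlike the IL-1 agonists, had its lowest mean in adenocarcinoma. Its cluster (10462442) read 5.69, 6.40, 6.31, 6.65 and 6.50 in adenocarcinoma, 6.60, 7.46, 6.55 and 7.83 in inflamed mucosa, and 7.55, 6.36, 7.34 and 6.66 in normal mucosa. Tumour 1 was the lowest array, and the groups overlapped, with the highest values split between inflamed and normal tissue. The difference in Il33 was -0.67 ± 0.30 for adenocarcinoma minus normal mucosa (95% interval -1.32 to -0.01, limma, adjusted p = 0.0989) and -0.80 ± 0.30 for adenocarcinoma minus inflamed mucosa (-1.45 to -0.15, limma, adjusted p = 0.149). The same-numbered pairs differed by -0.91, -1.06, -0.24 and -1.18, with the tumour the lower array each time. With tumour and inflamed arrays joined by number, the difference passed at -0.81 (limma, adjusted p = 0.0494) with a random block and at -0.85 (limma, adjusted p = 0.0157) in the 4 pairs alone. With the fixed block that also joins the normal arrays it was -0.79 and did not pass (limma, adjusted p = 0.176). Inflamed minus normal mucosa was 0.13 ± 0.32 (-0.56 to 0.82, limma, adjusted p = 0.764).

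Of the 6 measured members, 3 (Il1a, Il1b and Il1r2) were called higher and 0 lower in adenocarcinoma than in normal mucosa, where 16.4% of all genes were called higher and 19.4% lower. The median difference was 0.91 over the members and -0.10 over all genes. In inflamed minus normal mucosa limma called 0 of 6, with 1 member (Il1rap) at an unadjusted p under 0.05. Among all genes, 13.7% were called higher and 13% lower in that comparison, and the medians were -0.13 over the members and -0.09 over all genes. In adenocarcinoma minus inflamed mucosa Il1a, Il1b and Il1r2, or 3 members, were called higher and 0 lower, against 2.91% higher and 4.21% lower among all genes, with medians of 1.03 and -0.01. With tumour and inflamed arrays joined by number, in a random block or as 4 pairs, this count was 5 in place of 3, Il1rn and Il33 being added. The shares of all genes given here are from the unpaired fit. Those under the blocks are not given, so the counts of 5 have no share beside them. It was 3 with the fixed block that also joins the normal arrays. The 2 comparisons with adenocarcinoma share the 5 tumour arrays, and the 2 with normal mucosa share its 4 arrays. Both comparisons with normal mucosa also set dissected against scraped tissue, and collection and tissue state cannot be told apart there.

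**Figure D2:**
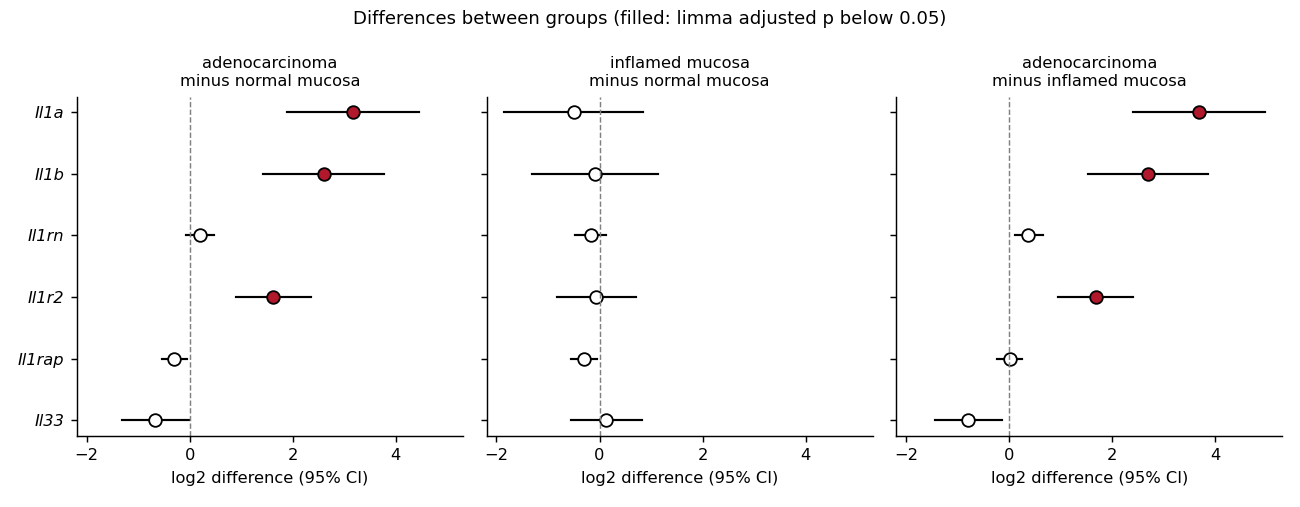
Log2 differences of the 6 measured genes in the 3 comparisons, with 95% confidence intervals; filled points passed limma's adjusted p of 0.05. Il1a, Il1b and Il1r2 lie right of 0 in both comparisons with adenocarcinoma, and no point is filled in inflamed minus normal mucosa.

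Since agonist and antagonist compete for 1 receptor, their log2 difference was taken on each array. Its size depends on the probes and has no meaning as a ratio of molecules, so only the change between tissues was tested. Il1b minus Il1rn was -2.29, -2.42, -3.41, -0.56 and -1.18 in adenocarcinoma, -4.18, -4.21, -4.08 and -4.67 in inflamed mucosa, and -3.14, -4.75, -4.89 and -4.71 in normal mucosa. All tumours exceeded all inflamed arrays, and normal mucosa 1 lay above tumour 3. The difference between adenocarcinoma and inflamed mucosa was 2.31 (two-sided exact permutation test, p = 0.0159, adjusted over 6 tests 0.0317), and between adenocarcinoma and normal mucosa 2.40 (exact p = 0.0317, adjusted 0.0476). Il1a minus Il1rn averaged -2.87 ± 1.08 in adenocarcinoma, -6.17 ± 0.32 in inflamed mucosa and -5.84 ± 1.15 in normal mucosa. Every tumour exceeded every other array, by 3.30 on average against inflamed mucosa and 2.97 against normal mucosa (exact p = 0.0159, adjusted 0.0317, for each). The smallest exact p that 5 arrays against 4 can give is 0.0159. In most repeats with 1 array left out, the adjusted p of these tumour differences lay above 0.05. These tests treat tumour and inflamed arrays as unpaired. In the 4 same-numbered pairs, Il1b minus Il1rn was higher in the tumour by 1.89, 1.79, 0.67 and 4.11, and Il1a minus Il1rn by 3.05, 2.74, 2.00 and 5.56. All 4 pairs ran the same way for both, and the two-sided exact sign-flip p was 0.125, the smallest that 4 pairs can give. Inflamed minus normal mucosa differed by 0.09 for Il1b minus Il1rn (exact p = 0.914, adjusted 0.914) and by -0.33 for Il1a minus Il1rn (exact p = 0.886, adjusted 0.914).

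**Figure D3:**
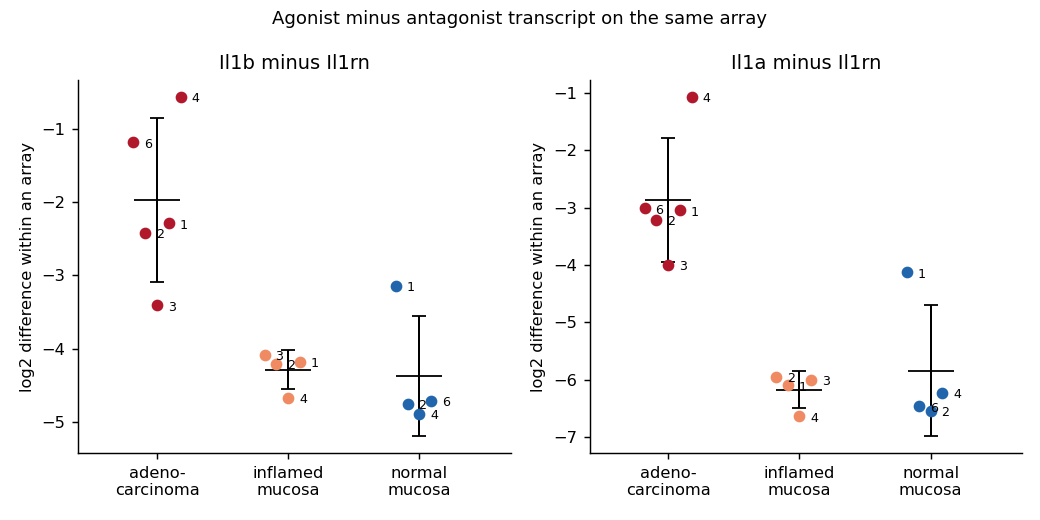
Log2 value of Il1b (left) or Il1a (right) minus that of Il1rn on the same array, by tissue; points are arrays with their numbers, lines group means and bars 1 SD. Only the position of groups relative to each other can be read, and the tumour points lie highest except that normal mucosa 1 exceeds tumour 3 in the left panel.

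Neutrophil markers moved with Il1a, Il1b and Il1r2. Of 12 measured markers, 10 rose and 0 fell in adenocarcinoma against normal mucosa (all genes 16.4% higher and 19.4% lower). Against inflamed mucosa 9 rose and 0 fell (all genes 2.91% and 4.21%). In inflamed against normal mucosa 1 rose and 1 fell (all genes 13.7% and 13%). The marker mean was 7.09, 7.65, 7.21, 8.71 and 8.37 in adenocarcinoma, 5.62, 5.73, 5.91 and 5.65 in inflamed mucosa, and 6.75, 5.60, 5.39 and 5.46 in normal mucosa. Tumours 4 and 6, which had the highest Il1b, had the highest marker means, and normal mucosa 1 again stood above the other normal arrays. Tumour 1 departed from this order. It had the lowest marker mean of the tumours, but its Il1a (8.16) exceeded that of tumour 6 (8.01). Its Il1b (8.92) exceeded that of tumour 2 (8.44). The calprotectin subunit S100a8 read 9.48 in tumour 4 and 10.17 in tumour 6, against 7.45 or less on every other array. The neutrophil chemokine receptor Cxcr2 read 7.29, 7.70, 7.15, 9.10 and 8.26 in adenocarcinoma, 4.95 to 5.54 in inflamed mucosa and 7.29, 4.94, 4.28 and 5.04 in normal mucosa. The part of these cells in the Il1a, Il1b and Il1r2 differences was not tested.

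Other cell type lists ordered the tissues differently. Macrophage and dendritic cell markers averaged 7.68 to 8.51 in adenocarcinoma, 8.26 to 8.79 in inflamed mucosa and 6.53 to 7.66 in normal mucosa. Of these 13 markers, 10 rose in adenocarcinoma against normal mucosa, where 16.4% of all genes rose. In inflamed against normal mucosa 11 of 13 rose, where 13.7% of all genes rose. Mast cell markers, a cell type that responds to IL-33, averaged 5.70 to 5.96 in adenocarcinoma, 6.11 to 7.71 in inflamed mucosa and 5.60 to 6.19 in normal mucosa. Fibroblast markers averaged 9.16 to 9.68 in adenocarcinoma, 9.03 to 9.49 in inflamed mucosa and 6.99 to 7.86 in normal mucosa. Endothelial markers averaged 8.42 to 8.75 in adenocarcinoma, 8.02 to 8.70 in inflamed mucosa and 5.99 to 6.57 in normal mucosa. Smooth muscle markers averaged 8.50 to 8.79 in adenocarcinoma and 10.09 to 11.07 in inflamed mucosa, and every normal array lay below the tumours, with a lowest value of 6.53. The T cell and innate lymphoid list averaged 6.37 to 6.67 in adenocarcinoma, 6.63 to 6.90 in inflamed mucosa and 6.18 to 7.38 in normal mucosa, with the top value in normal mucosa 1. Their part in the member differences was not tested.

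Without normal mucosa 1 and tumours 2 and 3, the arrays with the highest Krt5, the agonists and the decoy receptor kept their calls. The adenocarcinoma minus normal difference was then 4.40 for Il1a (limma, adjusted p = 4.69e-05), 3.80 for Il1b (adjusted p = 2.18e-05) and 2.20 for Il1r2 (adjusted p = 0.000286). Against inflamed mucosa it was 4.27 for Il1a, 3.42 for Il1b and 1.90 for Il1r2. All 6 values were above those with every array included, and the number of members called stayed at 3, 0 and 3. The inflamed minus normal differences of Il1a, Il1b and Il1r2 without these arrays were 0.12, 0.38 and 0.30 (limma, adjusted p = 0.84, 0.389 and 0.424). The tumours that were kept also carried some squamous markers. Of 14 such markers, 4 rose and 0 fell in adenocarcinoma without the 3 arrays, against normal and against inflamed mucosa alike. With every array included, 1 rose and 1 fell against normal mucosa (all genes 16.4% higher and 19.4% lower). Against inflamed mucosa 2 rose and 0 fell (all genes 2.91% and 4.21%). The shares of all genes without the 3 arrays are not given here. Dsg3 read 7.27, 7.51 and 7.66 in tumours 1, 4 and 6, against 4.75 to 5.29 in inflamed mucosa. Krt13 and Krt14 in these tumours also lay above every inflamed array. Krt5, Krt6a, Sprr3 and Trp63 in tumours 4 and 6 did not exceed the highest inflamed array. Krt5, for instance, read 5.98 and 6.29 there, against 6.11 to 6.46 in inflamed mucosa. The part of squamous tissue in the member differences was not tested.

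**Figure D4:**
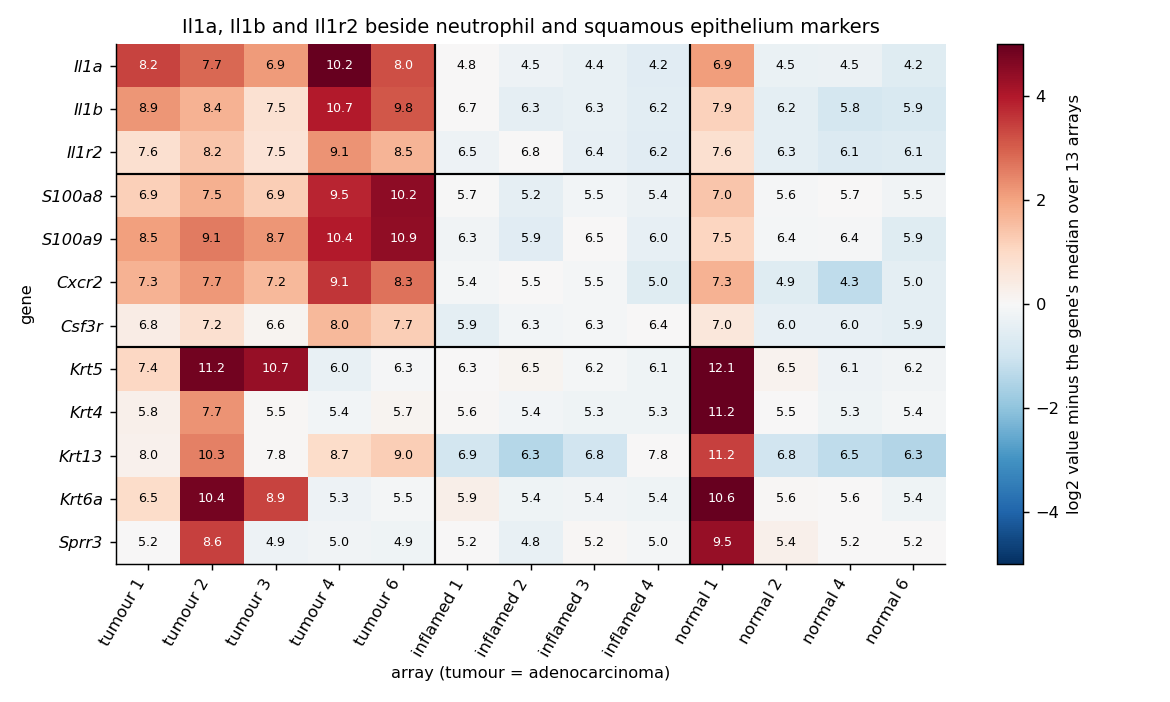
Log2 values of Il1a, Il1b and Il1r2 (top), 4 neutrophil markers (middle) and 5 squamous epithelium markers (bottom) on 13 arrays; numbers are values and colour is the value minus the gene's median over the arrays. Tumours 4 and 6 carry high neutrophil markers with low Krt5, though their Krt13 exceeds that of every inflamed array. Normal mucosa 1 carries high Krt5 beside raised Il1a, Il1b and Il1r2, and its 4 neutrophil markers exceed those of the other normal arrays.

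The promoters of the 3 genes that rose in adenocarcinoma are shown because kappa B and AP-1 elements are textbook routes to inflammatory transcription. Each run is the 250 bases before the annotated start, 5′ to 3′ on the gene's strand, from RefSeq (GRCm38.p6), with motif matches in capitals. The regions are chr2:129309973-129310222 on the minus strand for Il1a, chr2:129371140-129371389 on the minus strand for Il1b, and chr1:40085843-40086092 on the plus strand for Il1r2.
Il1a: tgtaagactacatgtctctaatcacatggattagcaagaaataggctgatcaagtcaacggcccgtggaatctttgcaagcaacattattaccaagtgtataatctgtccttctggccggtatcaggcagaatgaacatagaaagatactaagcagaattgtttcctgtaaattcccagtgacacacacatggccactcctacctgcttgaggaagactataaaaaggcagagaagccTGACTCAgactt
Il1b: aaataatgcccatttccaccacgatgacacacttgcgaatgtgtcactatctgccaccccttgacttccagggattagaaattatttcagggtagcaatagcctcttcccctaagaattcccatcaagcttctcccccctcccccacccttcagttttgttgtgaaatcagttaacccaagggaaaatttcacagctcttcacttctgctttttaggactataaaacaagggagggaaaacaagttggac
Il1r2: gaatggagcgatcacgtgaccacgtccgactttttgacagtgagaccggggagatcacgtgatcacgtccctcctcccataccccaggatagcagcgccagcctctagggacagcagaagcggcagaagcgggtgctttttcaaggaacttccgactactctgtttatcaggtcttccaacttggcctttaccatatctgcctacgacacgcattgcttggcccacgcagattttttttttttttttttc
Both strands were searched for 3 kappa B type motifs, which can overlap each other: GGG or GGGG, then 2 bases of any kind, then TTTCC or TTCCC after GGG and TTCC after GGGG. The AP-1 motif searched was TGANTCA. Il1a held TGACTCA at 12 to 6 bases before its start, and the windows of Il1b and Il1r2 held none of these letters. Among members whose windows are not printed, Il1rn held an AP-1 match 141 to 135 bases before one annotated start. Another Il1rn start had a kappa B type match at 51 to 42 bases, and Il1r1 had one at 232 to 223. Matches were thus not limited to the genes that rose. Of 32851 promoters of this length, 3.41% held a kappa B type match and 6.75% held TGANTCA. A match is a description of letters and not of binding, and no binding data were analysed here.

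Several genes that IL-1 is known to induce rose in adenocarcinoma. Of 20 IL-1 responsive genes, 11 rose and 2 fell in adenocarcinoma against normal mucosa (list median 0.82, all genes 16.4% higher and 19.4% lower). In inflamed against normal mucosa 5 rose and 3 fell (list median -0.17, all genes 13.7% and 13%). In adenocarcinoma against inflamed mucosa 8 rose and 0 fell (list median 0.78, all genes 2.91% and 4.21%). That last count was 12 with the random block, for which the share of all genes is not given, and 11 without normal mucosa 1 and tumours 2 and 3. The inflamed minus normal count of 8 was 5 without inflamed mucosa 4 or without normal mucosa 2. The collagenase Mmp13 read 11.47, 11.64, 10.78, 11.51 and 12.12 in adenocarcinoma, 7.79, 5.87, 6.15 and 6.79 in inflamed mucosa, and 5.55, 5.42, 5.52 and 5.60 in normal mucosa. The groups did not overlap, and the tumours were well apart from both other tissues, though 3 of 4 normal readings lay within the range of absent transcripts. Mmp13 rose by 5.98 ± 0.32 against normal mucosa (limma, adjusted p = 3.68e-08) and by 4.86 ± 0.32 against inflamed mucosa (limma, adjusted p = 2.72e-06). The stromelysin Mmp3 rose by 4.25 and 3.04, and the acute phase protein gene Saa3 by 4.92 and 4.33, in the same 2 comparisons. Ptgs2, which encodes the inducible cyclooxygenase COX-2, rose in inflamed against normal mucosa by 1.97 ± 0.31 (limma, adjusted p = 0.000528) and by a further 2.16 ± 0.30 in adenocarcinoma against inflamed mucosa (limma, adjusted p = 0.000781). Ptgs2 read 9.40 to 11.25 in adenocarcinoma, 8.32 to 8.43 in inflamed mucosa and 5.91 to 6.99 in normal mucosa, with no overlap. Ptges, the prostaglandin E synthase that acts after COX-2, rose by 2.29 in adenocarcinoma and by 1.38 in inflamed mucosa, each against normal mucosa. Tnfaip3, which encodes the NF-κB inhibitor A20, fell by 0.94 in inflamed against normal mucosa (limma, adjusted p = 0.000612). Many other signals also induce these genes, and which signal acted was not measured.

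Genes for processing and releasing IL-1 mostly moved down or did not pass. Of 12, 1 rose and 6 fell in adenocarcinoma against normal mucosa (all genes 16.4% higher and 19.4% lower). In inflamed against normal mucosa 0 rose and 4 fell (all genes 13.7% and 13%). In adenocarcinoma against inflamed mucosa 1 rose and 1 fell (all genes 2.91% and 4.21%). Casp1, the protease that matures IL-1β, read 8.72, 8.96, 9.22, 9.21 and 8.09 in adenocarcinoma, 9.13, 9.17, 8.77 and 9.49 in inflamed mucosa, and 10.52, 9.69, 10.08 and 9.44 in normal mucosa. It fell by 1.09 ± 0.25 in adenocarcinoma (limma, adjusted p = 0.0042) and fell by 0.79 ± 0.26 in inflamed mucosa (limma, adjusted p = 0.0396) against normal mucosa. The inflamed call was lost without tumour 2, any of inflamed mucosa 1, 2 and 3 or any of normal mucosa 1, 2 and 4, at -0.60 to -0.87 (limma, adjusted p = 0.0507 to 0.103). Leaving out normal mucosa 1 and tumours 2 and 3 together also lost it (-0.60, limma, adjusted p = 0.114). Nlrp6, an epithelial inflammasome sensor, fell by 2.03 in adenocarcinoma and by 0.99 in inflamed mucosa against normal mucosa, and by 1.04 in adenocarcinoma against inflamed mucosa. The last of these was lost without tumour 1 or any of inflamed mucosa 2, 3 and 4 (-0.94 to -1.07, limma, adjusted p = 0.0586 to 0.0835). Gsdmd, the pore protein through which IL-1β can leave cells, fell by 0.53 in adenocarcinoma and fell by 0.70 in inflamed mucosa against normal mucosa. Elane, the elastase of neutrophil granules, fell by 0.37 in adenocarcinoma and fell by 0.33 in inflamed mucosa against normal mucosa (limma, adjusted p = 0.00274 and 0.00988), and the groups did not overlap with normal mucosa in either. Nlrp3, the myeloid inflammasome sensor, read 5.83, 5.91, 5.81, 7.22 and 5.98 in adenocarcinoma, against 5.20 to 5.50 in inflamed mucosa, and rose by 0.84 ± 0.23 (limma, adjusted p = 0.0443). That Nlrp3 call was lost without tumour 2 or 6, any inflamed array or any of normal mucosa 2, 4 and 6 (0.81 to 0.91, limma, adjusted p = 0.0539 to 0.112), and its inflamed readings lay within the range of absent transcripts. Age as a covariate, a fit of only the 2 groups compared and cyclic loess also lost the Nlrp3 call (limma, adjusted p = 0.0721, 0.0754 and 0.0549). Stromal markers rose in both comparisons with normal mucosa, as given above, and a lower epithelial share was not tested.

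Receptor-proximal signalling genes divided by member. Of 13 measured, 4 rose and 1 fell in adenocarcinoma against normal mucosa (all genes 16.4% higher and 19.4% lower). In inflamed against normal mucosa 2 rose and 1 fell (all genes 13.7% and 13%). In adenocarcinoma against inflamed mucosa 0 passed (all genes 2.91% and 4.21%). Irak3 (IRAK-M), a brake on this pathway in myeloid cells, rose by 1.51 ± 0.18 in adenocarcinoma (limma, adjusted p = 2.45e-05) and by 1.41 ± 0.19 in inflamed mucosa (limma, adjusted p = 0.000112), each against normal mucosa. Irak2, a kinase of the signalling complex, fell by 1.51 ± 0.13 in adenocarcinoma (limma, adjusted p = 1.5e-06) and by 1.23 ± 0.14 in inflamed mucosa (limma, adjusted p = 2.45e-05). Irak2 lay between 8.11 and 8.65 in adenocarcinoma, 8.44 and 8.73 in inflamed mucosa, and 9.64 and 10.09 in normal mucosa. Irak2 and Irak3 both separated normal mucosa from the other tissues with no overlap. Irak1 rose by 0.56 in adenocarcinoma and 0.42 in inflamed mucosa against normal mucosa, and Traf6, the ubiquitin ligase downstream of the kinases, by 0.40 in adenocarcinoma. With arrays centred on their medians the Irak1 call in inflamed mucosa (0.23, limma, adjusted p = 0.055) and the Traf6 call (0.27, limma, adjusted p = 0.0687) were lost.

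Of 5 other measured IL-1 family ligands, limma called 0 in each comparison. Of 6 other family receptors, 1 rose and 3 fell in adenocarcinoma against normal mucosa (all genes 16.4% higher and 19.4% lower). In inflamed against normal mucosa 0 rose and 2 fell (all genes 13.7% and 13%). In adenocarcinoma against inflamed mucosa 0 passed (all genes 2.91% and 4.21%). With the random block or in the 4 pairs, 2 of these receptors rose and 0 fell in that comparison. Il18rap, the accessory chain of the IL-18 receptor, rose by 0.91 ± 0.20 in adenocarcinoma against normal mucosa (limma, adjusted p = 0.00306). Sigirr, an inhibitory family member of the intestinal epithelium, fell by 0.35 in adenocarcinoma and fell by 0.43 in inflamed mucosa against normal mucosa (limma, adjusted p = 0.0146 and 0.00822). The other receptor falls, in Il1rapl1 and Il1rapl2, came at group means of 4.28 or less, at or below the readings of absent transcripts.

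Genes that IL-33 is known to induce were counted beside all genes. Of 9 measured, 2 rose and 1 fell in adenocarcinoma against normal mucosa (all genes 16.4% higher and 19.4% lower). In inflamed against normal mucosa 0 rose and 1 fell (all genes 13.7% and 13%). In adenocarcinoma against inflamed mucosa 2 rose and 0 fell (all genes 2.91% and 4.21%). Arg1 (arginase 1) read 9.45, 9.37, 9.02, 9.82 and 9.70 in adenocarcinoma, 5.86, 5.55, 5.97 and 5.87 in inflamed mucosa, and 9.95, 6.02, 5.71 and 5.83 in normal mucosa. The tumours were uniformly high, and normal mucosa 1 matched them while the other normal arrays did not. Arg1 rose by 3.66 ± 0.66 against inflamed mucosa (limma, adjusted p = 0.0042) and by 2.59 ± 0.66 against normal mucosa (limma, adjusted p = 0.00813), or by 3.62 against normal mucosa without normal mucosa 1. Chil3, a chitinase-like protein of myeloid cells, rose by 1.40 and 1.05 in adenocarcinoma against normal and inflamed mucosa, at means of 5.44 in adenocarcinoma, 4.38 in inflamed mucosa and 4.04 in normal mucosa. All 3 Chil3 means lay within the range of absent transcripts (3.60 to 5.57), so the size of its differences is uncertain. The type 2 cytokine Il13 fell by 0.34 in adenocarcinoma against normal mucosa (limma, adjusted p = 0.016). The Il13 call was lost without normal mucosa 1 and tumours 2 and 3 (-0.23, limma, adjusted p = 0.153). Cyclic loess also lost it (-0.22, limma, adjusted p = 0.055). Il9, another type 2 cytokine, fell by 0.45 in inflamed against normal mucosa (limma, adjusted p = 0.0381), with an inflamed mean of 5.41 within the range of absent transcripts. That call was lost without tumour 2, any of inflamed mucosa 1, 2 and 4, or normal mucosa 2 (-0.30 to -0.45, limma, adjusted p = 0.0502 to 0.107). A fit of only the 2 groups compared and cyclic loess also lost the Il9 call (limma, adjusted p = 0.0823 and 0.0797).

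The profile most like Il1b over the 13 arrays was that of Trem1, a myeloid receptor on the neutrophil list, with a Pearson correlation of 0.981. Il1a (0.974), the chemokine gene Cxcl2 (0.973) and Il1r2 (0.968) followed. For Il1r2 the most alike were Cxcr2 (0.986), Il1b (0.968), Il1a (0.965) and the granulocyte receptor Csf3r (0.959), and for Il1a they were Il1b (0.974), Il1r2 (0.965), Cxcr2 (0.964) and Cxcl2 (0.962). The arrays share their tissue groups. As deviations from the group means the correlation was 0.953 between Il1b and Trem1, 0.952 between Il1r2 and Cxcr2, and 0.922 between Il1a and Il1b. Il1rn was most like Cib1 (0.93) and Clic1 (0.91), and its correlation was 0.739 with Il1a and 0.726 with Il1b. Il33 was most like Cfl2 (0.898), with -0.418 against Il1a and -0.404 against Il1b. Il1rap was most like Mir495 (0.9) and Ntan1 (0.882). These correlations are descriptions over 13 arrays.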

How the data were processed

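RNA from 13 pieces of mouse rectum (5 adenocarcinomas, 4 inflamed, 4 normal) was measured on 1 Affymetrix array each. The authors deposited log2 values made by RMA, 1 per transcript cluster. Per the series' design text they used Expression Console 1.1 after image processing in Command Console 2.0. Partek is a further tool in the submitters' processing notes. RMA subtracts background, gives all arrays 1 distribution and sums up probes, which compresses differences of dim genes. No probe-level background or scan date was used. The number of arrays limits the precision.

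Of 35556 clusters, 21789 name 1 gene in the platform annotation, 1621 several and 12146 none. Symbols were brought up to date by Entrez identifier (21698 matched RefSeq, GRCm38.p6), and the brightest cluster per gene was kept. No dim genes were filtered. All 19938 genes were tested in 1 fit of the 3 groups (limma 3.58.1, R 4.3.3, lmFit and eBayes, Benjamini-Hochberg adjusted p below 0.05), a script that was tested on simulated data. P-values measure the spread between arrays, and the labels do not say that all pieces come from separate mice. Of 12 within-array tests planned, 6 could be run, since Il1r1 and Il1rl1 have no listed cluster, and p was adjusted over those 6.

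Members, lists and tests were chosen with earlier results of these data known. The text names all members and up to 4 called genes with the smallest adjusted p per list and comparison. It also names genes from the 4 most correlated with each member (predicted, segment and olfactory genes left out). Marker genes with values in the text were picked after they were seen.

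Deviations from group means of same-numbered tumour and inflamed arrays, which share sex and age in the labels, correlated at 0.319, 0.198, 0.199 and 0.387. The main fit and the within-array tests left all arrays unpaired, and these arrays were joined as pairs only in alternatives. Normal arrays correlated at -0.126 to 0.0413 with arrays of their number. Only the fixed block over all arrays of a number joined them. The alternatives were replicate blocks, sex or age as a covariate, other scalings, filters and variance models, and leaving out each array.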

Additional observations from a re-analysis of the deposited data

Results flagged for a closer look

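Of 18 groups of arrays tested (6 genes in 3 tissues), 2 held an array far from the others by Dixon's criterion, which chance meets in about 1 group in 20. Both were normal mucosa 1. Il1a read 6.88 there, and its gap to the next normal array was 0.879 of the group's range. Il1r2 read 7.61 there, with a gap of 0.876 of the range. The same array had the highest squamous marker mean (9.22) and, among normal arrays, the highest neutrophil marker mean (6.75). The part of either in these readings was not tested.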

How the results depend on the processing

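The rises of Il1a, Il1b and Il1r2 in adenocarcinoma passed in all 27 alternatives against normal mucosa and all 28 against inflamed mucosa. Against normal mucosa the log2 differences ranged over 2.68 to 4.40 for Il1a, 2.20 to 3.80 for Il1b and 1.40 to 2.20 for Il1r2, and against inflamed mucosa over 3.18 to 4.27, 2.29 to 3.42 and 1.46 to 1.90. Centring arrays on their medians set the median difference of all genes to -0.24 in adenocarcinoma minus normal mucosa and -0.28 in inflamed minus normal mucosa, against -0.10 and -0.09 as deposited. It gave 2491 higher and 8612 lower calls in the first of these (3266 and 3867 as deposited) and 1875 and 9510 in the second (2730 and 2592). In adenocarcinoma minus inflamed mucosa it gave 728 higher and 694 lower calls, against 581 and 839. Members called with centring numbered 5 in adenocarcinoma minus normal mucosa, Il33 (-0.80) and Il1rap (-0.43) being added as falls, and 2 in inflamed minus normal mucosa, Il1rn (-0.36) and Il1rap (-0.50). Quantile normalization of the kept genes gave 3104 higher and 3835 lower calls in adenocarcinoma minus normal mucosa, and 2498 and 3580 in inflamed minus normal mucosa. In inflamed minus normal mucosa, members called numbered 1 (Il1rap) with sex as a covariate, with cyclic loess or with quantile normalization. With the replicate block, random or in the 4 pairs, members called in adenocarcinoma minus inflamed mucosa numbered 5, the share of all genes under these blocks not being given. With a fixed replicate block over all arrays of a number they numbered 3 (Il33 -0.79, limma, adjusted p = 0.176, and Il1rn 0.40, limma, adjusted p = 0.0692). No block changed any other member's call. In the 4 pairs, an alternative chosen after seeing the data, Il1b minus Il1rn differed by 2.11 and Il1a minus Il1rn by 3.34 in adenocarcinoma minus inflamed mucosa, with an exact p of 0.125, the smallest possible.

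Signs turned only where no difference passed. In inflamed minus normal mucosa, leaving out 1 array moved Il1a over -0.78 to 0.12, Il1b over -0.30 to 0.38, Il33 over -0.11 to 0.32 and Il1r2 over -0.20 to 0.30, and Il1a was 0.12 without normal mucosa 1. Il1b was 0.18 with a fixed replicate block, 0.07 with sex, 0.06 with array weights and 0.38 without normal mucosa 1. Il1r2 was 0.05 with that block, 0.03 with array weights or without inflamed mucosa 4, and 0.30 without normal mucosa 1. Il33 was -0.06 with centring, -0.11 without inflamed mucosa 4 and -0.07 without normal mucosa 2. In adenocarcinoma minus inflamed mucosa, Il1rap was -0.02 in the 4 pairs or with age, -0.00 with cyclic loess, and -0.01 to -0.06 without tumour 2, 4 or 6 or inflamed mucosa 1 or 3. In inflamed minus normal mucosa, Il1b minus Il1rn was -0.00 with cyclic loess and -0.03 with quantile normalization. Leaving out 1 array at a time moved it between -0.09 and 0.50, and moved Il1a minus Il1rn between -0.56 and 0.24. The cause of these turns was not tested.

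With 1 array left out, adenocarcinoma minus normal mucosa was 2.04 to 2.81 for Il1b minus Il1rn and 2.52 to 3.54 for Il1a minus Il1rn, and adenocarcinoma minus inflamed mucosa 1.96 to 2.67 and 2.85 to 3.59. The adjusted exact p then lay between 0.0429 and 0.107, so most of these calls were lost. Against normal mucosa both differences passed only without tumour 3 (exact permutation test, adjusted p = 0.0429). Against inflamed mucosa both passed without tumour 3 (adjusted 0.0429) or without any 1 normal array (adjusted 0.0476), and not otherwise. The smallest exact p that 4 arrays against 4 can give is 0.0286. Over all alternatives, IL-1 responsive genes called ranged over 5 to 12 (against 8) in inflamed minus normal mucosa and 7 to 13 (against 8) in adenocarcinoma minus inflamed mucosa. Processing and release genes called ranged over 3 to 9 (against 4) in inflamed minus normal mucosa and 0 to 2 (against 2) in adenocarcinoma minus inflamed mucosa, and IL-33 responsive genes over 0 to 6 (against 1) in inflamed minus normal mucosa.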
